A study of Homo sapiens with 2 samples.

Results

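Cluster 5 was 1 of the 6 groups, numbered from 0, into which the authors had divided the single cells of MDA-MB-453 by their RNA, and its members were the cells that carried this number in the deposited cell table. It held 541 of the 5985 cells, of which 407 came from the vehicle library and 134 from the cytokine library. MDA-MB-453 is an established human breast cancer cell line, labelled as triple-negative and wild type. It was kept for 24 hours in medium with fetal bovine serum, with water as vehicle in 1 culture and with IL1β and TNFα at 10 ng/ml in the other. IL1β and TNFα are inflammatory cytokines that activate the transcription factor NF-κB, and the study asked how the cells answer them. Poly(A) RNA was read from its 3′ end, and unique molecular identifiers (UMIs) mark single RNA molecules. With a single library per condition there were no replicate cultures, so values of the libraries are set side by side without a test.

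The cells of cluster 5 were shallower than the rest of their library. Their median depth was 17651 UMIs and 3747 genes in the vehicle library, where the other clusters had 20729 UMIs and 4153 genes. Cytokine-treated cells had medians of 18124.5 UMIs and 3713.5 genes against 21622 UMIs and 3950 genes. Summed over its cells, cluster 5 gave 7378993 vehicle UMIs and 2525035 cytokine UMIs, and the other clusters gave 51209003 and 67067411. Median mitochondrial shares were 6.09% against 6.32% and 6.59% against 6.47%. No barcode named a cluster 5 cell in both libraries, and 2 of the barcodes of cluster 5 cells also named a cell of another cluster in the other library. Levels are given as counts per 1000000 UMIs (CPM) of the summed cells of a pool, and the 95% intervals given with them are exact and hold only the error of counting molecules, unless another kind is named.

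Breast epithelial genes were present in cluster 5, and those measured lay within 2-fold of the other clusters in the vehicle library. In the vehicle library KRT18, a keratin of simple epithelium, stood at 690 CPM in cluster 5 and 687 CPM in the other clusters, EPCAM at 261 and 222 CPM, and GATA3, a luminal transcription factor, at 640 and 577 CPM. None of 18 measured luminal epithelial genes differed 2-fold there. None of the markers of basal, lymphoid, myeloid or erythroid cells reached 20 CPM in any of these pools, and of the fibroblast and endothelial markers COL1A1 alone did, at 20.1 against 21.0 CPM in the vehicle and 24.6 CPM in cluster 5 of the cytokine library.

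Dividing cells copy their DNA in S phase and separate it in mitosis (M phase), with the gaps G1 and G2 between. Genes for replication factors and most histones are transcribed mainly around S phase. Genes for mitotic cyclins, spindle proteins and the regulators of chromosome separation are transcribed later, and some of their messengers outlast mitosis into the next G1. The cell table gave each cell a phase call made from scores of S and of G2 and M genes. Among vehicle cells 220 cluster 5 cells (54.1%) were called G1, 23 (5.65%) S and 164 (40.3%) G2M. Of the 2415 other vehicle cells 812 (33.6%) were called G1, 1250 (51.8%) S and 353 (14.6%) G2M. With the cytokines 118 cluster 5 cells (88.1%) were called G1, 2 (1.49%) S and 14 (10.4%) G2M, and of 3029 other cells 2681 (88.5%), 322 (10.6%) and 26 (0.858%). In the vehicle library cluster 5 thus had the lowest share of S calls and the highest share of G2M calls of the 6 clusters. In the cytokine library clusters 0, 1 and 3 also had few S calls, 1.55%, 2.34% and 1.19%, and 255 of the 322 other S cells lay in cluster 2. Cluster 2 also held all 26 other cells called G2M there, 9.15% of its cells (6.07% to 13.1%), close to the 10.4% of cluster 5 (5.83% to 16.9%).

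**Figure D1:**
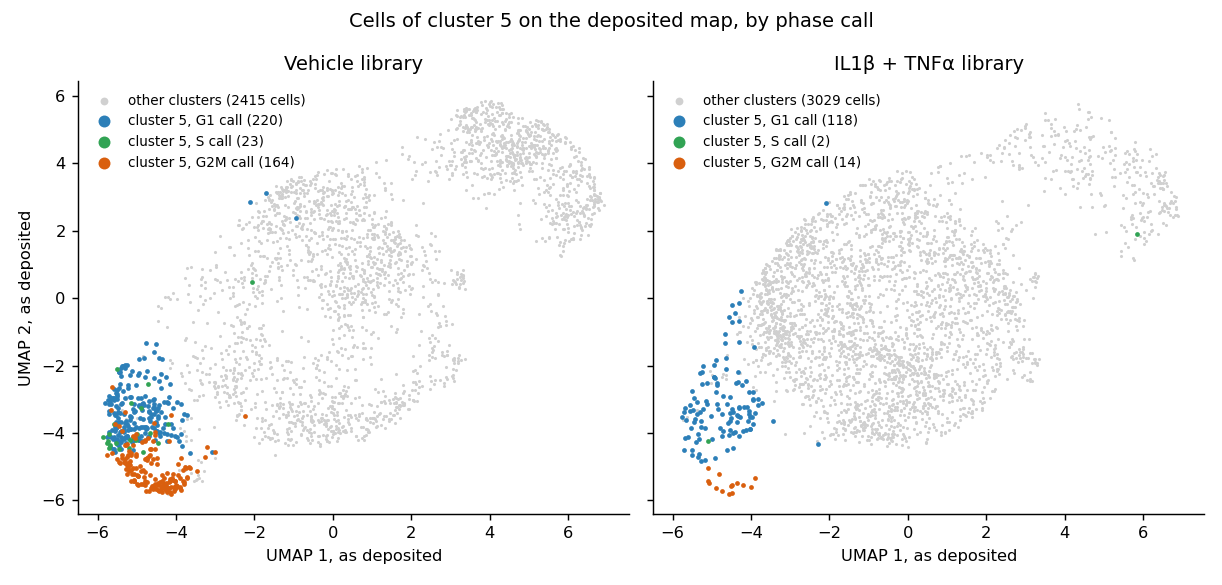
Position of every cell on the authors' 2-dimensional map (UMAP, axes without units as deposited), with the vehicle library on the left and the IL1β + TNFα library on the right. Grey points are the 2415 and 3029 cells of the other clusters, and coloured points are cluster 5 cells by phase call: 220 G1, 23 S and 164 G2M on the left, 118, 2 and 14 on the right. Nearly all cluster 5 cells lie at the lower left of both panels, those called G2M below those called G1, and few lie inside the grey mass.

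The clusters were made from the expression of these genes, so differences of cluster 5 from the other clusters are a description of what the authors' grouping had gathered. A gene was measured where a pool reached 20 CPM, and was counted as higher or lower where the pools differed at least 2-fold with the interval of the ratio on the same side. In the vehicle library 34 of 5039 measured genes were higher in cluster 5 (0.675%) and 80 were lower (1.59%). With the cytokines 73 of 4755 were higher (1.54%) and 34 lower (0.715%). The median log2 ratio over all measured genes was 0.02 and 0.10. The split of the cytokine library depended on scaling: scaling by TMM lowered every ratio by 0.11 and gave 53 higher and 55 lower genes, and DESeq2 size factors lowered it by 0.10 and gave 55 and 53. Totals without ribosomal protein and mitochondrially encoded genes gave 77 and 59.

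PTTG1 had the highest called ratio of cluster 5 to the other clusters in both libraries. The gene (chr5:160421855-160428739, + strand, GRCh38) encodes securin, which holds back the protease that separates sister chromatids. It stood at 583 CPM (566 to 601) in vehicle cluster 5 and at 99.6 CPM (96.9 to 102) in the other vehicle cells, a 5.85-fold difference (log2 2.55, 2.49 to 2.61). In the cytokine library it stood at 326 CPM (304 to 349) against 7.60 CPM (6.96 to 8.29), 42.9-fold (log2 5.42, 5.26 to 5.59). No other cluster came near: clusters 0 to 4 lay between 83.0 and 108 CPM in the vehicle and between 2.64 and 49.7 CPM in the cytokine library.

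Out of 4425 genes measured in both libraries, 23 were higher in vehicle and 69 in cytokine-treated cluster 5, and 17 were higher in both. With 16 and 20 genes lower, few could have been called in opposite directions, and 0 were. The 17 genes were PTTG1, CCNB1, CCNB2, CDC20, CDKN3, BIRC5, CENPW, TROAP, TUBA1B, ARL6IP1, ANP32E, HMGB3, NMU, the histone genes HIST1H2AC, HIST1H2BJ and HIST1H3G, and AP002360.1. The B-type cyclins start mitosis as partners of CDK1: CCNB1 stood at 131 against 38.5 CPM (3.41-fold) in the vehicle and 42.0 against 7.96 CPM (log2 2.40) in the cytokine library. CCNB2 stood at 139 against 38.9 CPM (3.58-fold) and at 64.6 against 6.43 CPM (log2 3.33). CDC20, which activates the ubiquitin ligase that ends mitosis, was at 138 against 41.4 CPM (3.33-fold) and 38.4 against 6.46 CPM (log2 2.57). Cluster 2 of the cytokine library, however, stood at 40.8 CPM of CDC20, no lower than cluster 5. CDKN3, a phosphatase of cyclin-dependent kinases, was 2.85-fold and 10.8-fold higher in cluster 5, at 450 and 157 CPM.

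Of 4425 genes measured in both libraries, only 7 stood at least 2-fold above each of the other 5 clusters in both, and 0 stood 2-fold below each. By any margin 533 stood above and 228 below every other cluster in both libraries. These counts used the ratios without their intervals. The log2 ratio to the nearest cluster was 2.43 for PTTG1, 1.38 for TROAP, a protein of the mitotic spindle, 1.27 for ARL6IP1, which shapes the endoplasmic reticulum, and 1.16 for HIST1H2BJ. It was 1.11 for NMU, the secreted peptide neuromedin U, 1.05 for the chromatin protein HMGB3 and 1.02 for ANP32E, a chaperone of the histone variant H2A.Z. NMU stood at 54.5 CPM (49.3 to 60.1) in vehicle cluster 5 and 14.3 CPM in the other vehicle cells, and at 66.9 CPM (57.2 to 77.8) against 1.91 CPM in the cytokine library, 35.1-fold. TROAP stood at 103 against 36.3 CPM and at 56.2 against 2.46 CPM, 22.9-fold.

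**Figure D2:**
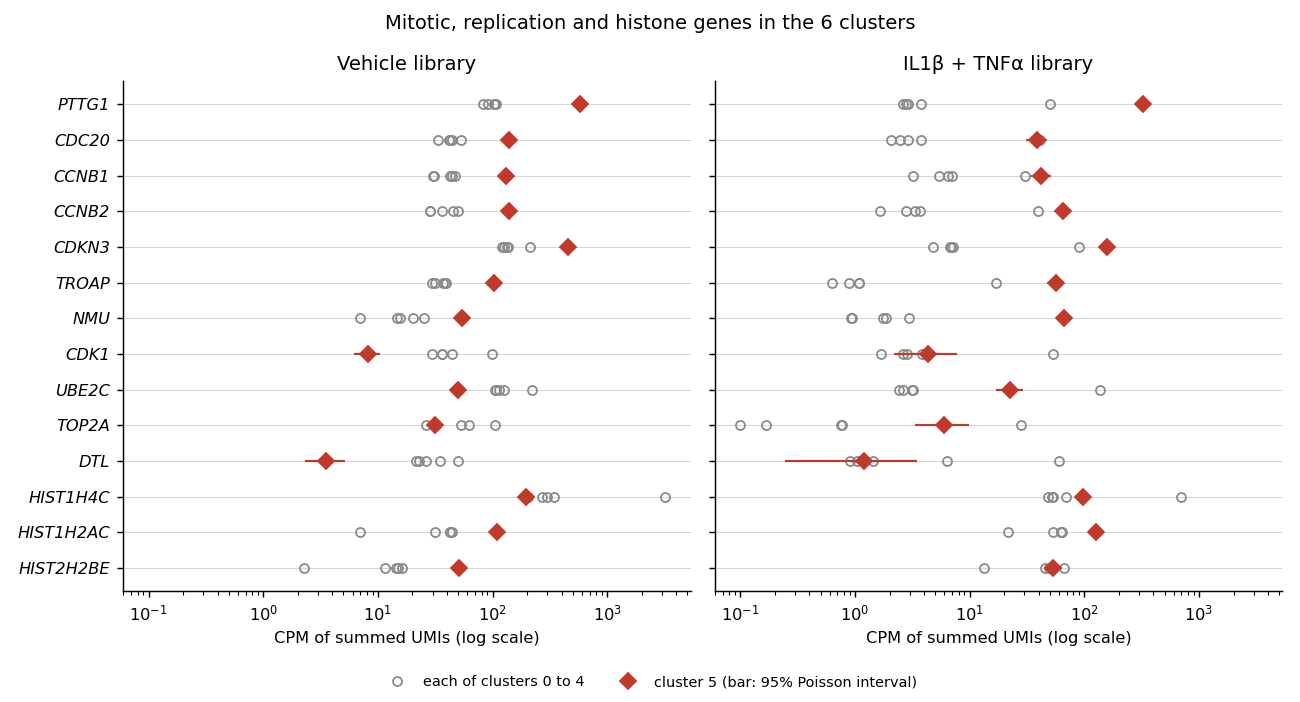
Levels of 14 mitotic, replication and histone genes in the 6 clusters, in CPM of summed UMIs on a log axis, with the vehicle library on the left and the IL1β + TNFα library on the right. Red diamonds are cluster 5 with 95% Poisson intervals, grey circles are each of clusters 0 to 4, and values under 0.1 CPM are drawn at 0.1. PTTG1 stands clear of every circle in both panels, at 583 and 326 CPM, while CDK1 at 8.13 CPM and DTL at 3.52 CPM lie below every circle on the left.

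Measured genes of the G2 and M list did not all go one way. Among vehicle cells 7 of 40 were higher and 3 lower, with a median log2 ratio of 0.34, and their summed level was 7346 against 5126 CPM. With the cytokines 10 of 23 were higher and 0 lower, with a median of 0.86 and sums of 3881 and 2267 CPM. The lower genes in the vehicle library were CDK1, the kinase that drives entry into mitosis, UBE2C, a ubiquitin-conjugating enzyme of mitotic exit, and TOP2A, the topoisomerase that untangles chromosomes. CDK1 stood at 8.13 CPM (6.21 to 10.5) in cluster 5 and at 57.8 CPM in the other vehicle cells, 7.11-fold lower, with clusters 0 to 4 between 29.8 and 99.3 CPM. UBE2C stood at 50.3 against 149 CPM and TOP2A at 31.6 against 65.5 CPM. Values in the cytokine library were 4.36 against 7.38 CPM for CDK1 (log2 −0.76, −1.77 to 0.09), 22.6 against 15.4 CPM for UBE2C and 5.94 against 3.01 CPM for TOP2A, none of them called. There UBE2C was highest in cluster 2, at 135 CPM.

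Replication genes were low in vehicle cluster 5. Of 32 measured S phase genes 19 were lower and 0 higher, the median log2 ratio was −1.15, and the list summed to 1091 CPM against 2125 CPM. DTL, which marks the licensing factor CDT1 for destruction, stood at 3.52 CPM (2.30 to 5.16) in cluster 5 and 34.4 CPM in the other vehicle cells, 9.76-fold lower, with clusters 0 to 4 between 21.6 and 49.6 CPM. MCM10, a factor of replication origins, stood at 2.44 against 22.7 CPM, FBXO5, an inhibitor of the mitotic ubiquitin ligase, at 3.12 against 27.0 CPM, and the checkpoint protein gene CLSPN at 9.76 against 60.6 CPM. The helicase genes MCM5 and MCM6 stood at 14.9 against 51.9 CPM and 18.2 against 47.2 CPM, and PCNA, the sliding clamp, at 59.0 against 132 CPM (log2 −1.16). Among cytokine-treated cells 11 S phase genes were measured, 1 was higher and 0 lower, the median was −0.03, and PCNA stood at 34.8 against 43.5 CPM. The 1250 vehicle cells called S among the other clusters, against 23 in cluster 5, moved with these values.

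Promoters of 4 genes are shown, a pair that was higher in cluster 5 in both libraries and a pair that was lower in the vehicle library. They are RefSeq promoters of 300 bases, from 250 before to 50 after the start, on GRCh38.p14, all on the + strand: PTTG1 at chr5:160421605-160421904 and CCNB2 at chr15:59104896-59105195 were higher in cluster 5, and CDK1 at chr10:60778081-60778380 and DTL at chr1:212035498-212035797 were lower in the vehicle library. Capitals mark 3 motifs, searched on both strands: the CHR element of mitotic genes (TTTGAA or TTCGAA), the CCAAT box (CCAAT), and an E2F site (TTTGGCGC, TTTGCCGC, TTTCGCGC or TTTCCCGC).
PTTG1: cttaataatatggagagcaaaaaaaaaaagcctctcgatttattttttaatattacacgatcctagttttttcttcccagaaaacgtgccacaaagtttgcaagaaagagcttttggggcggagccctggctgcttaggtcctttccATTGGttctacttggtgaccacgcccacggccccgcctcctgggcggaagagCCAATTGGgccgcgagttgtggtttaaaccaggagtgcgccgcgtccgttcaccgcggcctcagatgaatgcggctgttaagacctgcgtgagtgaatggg
CCNB2: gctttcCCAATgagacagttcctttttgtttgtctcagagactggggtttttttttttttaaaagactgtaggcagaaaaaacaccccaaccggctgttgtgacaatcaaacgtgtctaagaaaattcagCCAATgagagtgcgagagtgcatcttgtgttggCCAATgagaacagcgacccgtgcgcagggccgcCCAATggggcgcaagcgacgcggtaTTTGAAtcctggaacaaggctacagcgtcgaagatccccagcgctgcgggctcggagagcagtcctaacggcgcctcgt
CDK1: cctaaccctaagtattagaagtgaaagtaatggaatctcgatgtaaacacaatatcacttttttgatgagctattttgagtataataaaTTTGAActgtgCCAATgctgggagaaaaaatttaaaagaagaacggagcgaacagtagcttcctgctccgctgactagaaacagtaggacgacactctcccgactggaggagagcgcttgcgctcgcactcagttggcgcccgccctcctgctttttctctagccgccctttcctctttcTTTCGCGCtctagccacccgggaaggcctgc
DTL: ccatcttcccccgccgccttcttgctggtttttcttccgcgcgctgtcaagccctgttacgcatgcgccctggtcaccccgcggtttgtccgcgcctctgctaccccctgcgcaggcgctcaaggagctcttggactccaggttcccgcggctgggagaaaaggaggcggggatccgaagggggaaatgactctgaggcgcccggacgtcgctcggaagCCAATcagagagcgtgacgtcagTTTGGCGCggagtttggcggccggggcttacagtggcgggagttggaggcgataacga
In the PTTG1 promoter 3 CCAAT boxes and no CHR or E2F match were found, and the last pair, on opposite strands, overlapped. In the CCNB2 promoter 4 CCAAT boxes and 1 CHR were found, in that of CDK1 1 match of each motif, and in that of DTL 1 CCAAT box and 1 E2F site. Among the genes higher in vehicle cluster 5, 18 of 34 had a promoter in the table. Of these 8 (44.4%) held a CHR, 13 (72.2%) a CCAAT box and 0 (0%) an E2F site. The other higher genes were not matched, so these shares rest on few promoters. Of 60 promoters of the 80 lower genes, 16.7% held a CHR, 58.3% a CCAAT box and 35.0% an E2F site. Over 4365 promoters of measured genes the shares were 10.7%, 39.3% and 6.05%, and those over all 27305 promoters were 16.6%, 35.7% and 3.33%. A match is a run of letters and was not tested as a binding site.

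Histone genes were split. Replication-dependent histone messengers are made with DNA and mostly end without a poly(A) tail, and their many near-identical copies can share reads, so single genes of the family are uncertain here. Among vehicle cells 6 of 11 measured members were higher and 3 lower, with a median log2 ratio of 1.25. HIST2H2BE, an H2B gene, stood at 51.4 CPM (46.3 to 56.8) against 10.4 CPM (4.94-fold), with clusters 0 to 4 between 2.24 and 16.3 CPM, and HIST1H2AC, an H2A gene, at 110 against 29.1 CPM (3.77-fold). HIST1H4C, an H4 gene, went the other way, at 197 CPM (187 to 207) against 1247 CPM, 6.34-fold lower. Clusters 0 to 4 ranged from 205 to 3178 CPM of HIST1H4C, so cluster 5 stood just under the lowest of them. HIST2H2AC stood at 26.8 against 66.1 CPM and HIST1H1D at 17.3 against 38.1 CPM. Among cytokine-treated cells 2 of 11 members were higher, HIST1H2AC and HIST1H2BJ, and 0 lower. HIST1H3G, also higher there, is an H3 gene outside the list. HIST2H2BE stood at 53.5 against 49.9 CPM (log2 0.10) and HIST1H4C at 96.6 against 114 CPM (log2 −0.24).

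Some chromatin and tubulin genes were higher in cluster 5. Of 13 measured chromatin architectural genes 5 were higher and 0 lower in the cytokine library (median 0.48), against 1 and 0 in the vehicle library (median 0.32). HMGN2 stood in the cytokine library at 1712 against 463 CPM (log2 1.89), H2AFZ, which encodes the histone variant H2A.Z, at 2444 against 728 CPM (1.75), and HMGB1 at 2343 against 787 CPM (1.57). Vehicle values were 2481 against 1513 CPM, 3692 against 2540 CPM and 3252 against 2142 CPM, below the 2-fold limit. Of the tubulin list, which holds STMN1, 1 of 7 measured members was higher in the vehicle and 2 of 6 in the cytokine library, with 0 lower in either. STMN1, which destabilizes microtubules, stood at 766 against 98.0 CPM (7.82-fold) in the cytokine and 1232 against 645 CPM (log2 0.93) in the vehicle library. TUBA1B, an α-tubulin gene, stood at 1923 against 937 CPM (2.05-fold) in the vehicle and 673 against 227 CPM (log2 1.57) in the cytokine library, where cluster 2 stood no lower, at 712 CPM. Cytokine-treated cells called G2M were 14 of cluster 5 and 26 of cluster 2. In these few cells HMGN2 stood at 2036 against 2293 CPM, H2AFZ at 3953 against 3441 CPM and HMGB1 at 2888 against 2952 CPM. STMN1 stood at 1411 against 1195 CPM, and none of these genes was called.

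Other lists moved little. Of 12 measured heat shock genes 0 were higher in the vehicle and 1 in the cytokine library, HSPB1 at 289 against 142 CPM, with medians of 0.37 and 0.43. HSP90AA1, a chaperone gene, stood at 2080 against 1158 CPM and 1733 against 961 CPM. All 23 measured proteasome genes lay above a ratio of 1 in the vehicle library, with a median log2 ratio of 0.25, and none was called. Of 29 measured MYC target and ribosome biogenesis genes 27 lay above it in the cytokine library, with a median of 0.42 and none called. MT2A, a metallothionein gene, stood at 1275 against 468 CPM (log2 1.45) in the cytokine library and 3328 against 1980 CPM (0.75) in the vehicle library.

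**Figure D3:**
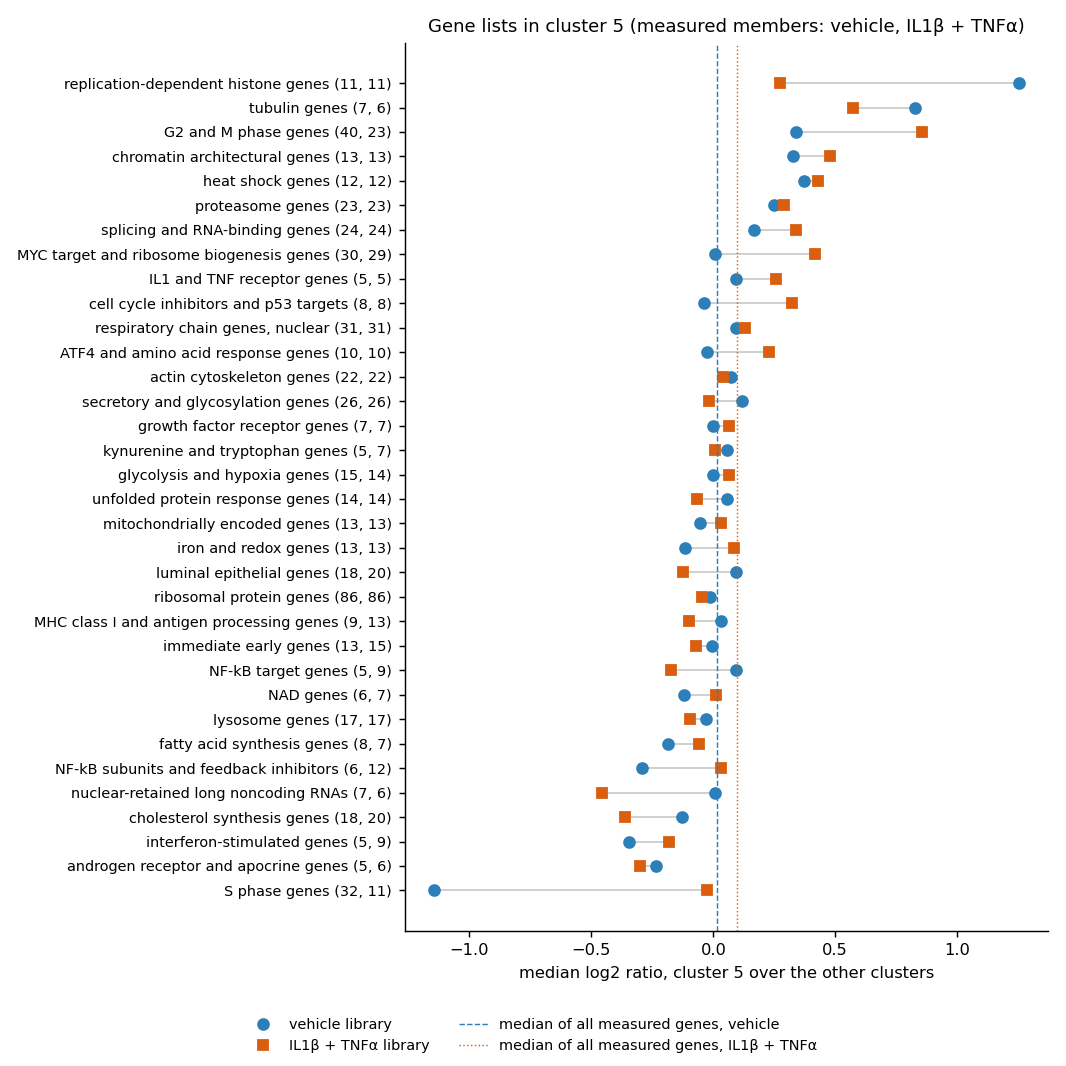
Median log2 ratio of cluster 5 over the other clusters of the gene lists with 5 or more measured members in both libraries, with the vehicle library as blue circles and the IL1β + TNFα library as orange squares. The counts of measured members in both libraries follow each list name, and dashed and dotted lines mark the medians of all measured genes, 0.02 and 0.10. The replication-dependent histone genes at 1.25 and the S phase genes at −1.15 stand farthest apart in the vehicle library.

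The same comparison was made within a phase call, which used the mitotic and replication genes too. Among vehicle cells called G1, 220 of cluster 5 and 812 others, 40 of 4778 genes were higher (0.837%) and 13 lower (0.272%). PTTG1 stood at 518 against 85.2 CPM (6.08-fold), CDKN3 at 303 against 65.4 CPM, CCNB2 at 80.9 against 17.1 CPM and MKI67, the proliferation antigen Ki-67, at 89.3 against 19.3 CPM. Of the G2 and M list 8 of 23 were higher and 0 lower. Only 16 S phase genes reached 20 CPM in these cells, and as a list they were no longer apart, with 3 higher, 0 lower and a median of 0.09. Under that limit DTL, at 3.20 against 7.38 CPM (log2 −1.21, −2.16 to −0.38), and MCM10, at 0.492 against 4.25 CPM, still stood lower. CDC45 stood at 3.20 against 3.13 CPM. HIST1H4C stood at 181 against 178 CPM and CDK1 at 6.64 against 9.07 CPM. Of the 34 higher genes of the whole vehicle comparison 20 were also called here, and of the 80 lower genes 5. Luminal markers differed by less than the 2-fold limit: KRT7 stood at 191 against 335 CPM and KRT8 at 278 against 405 CPM, while XBP1 stood at 1213 against 1022 CPM.

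Among vehicle cells called G2M, 164 of cluster 5 and 353 others, 59 of 5262 genes were higher (1.12%) and 95 lower (1.81%), in a comparison added after the data had been seen. PTTG1 stood at 685 against 287 CPM (2.38-fold), CDC20 at 297 against 139 CPM and CCNB2 at 232 against 115 CPM, all called higher. PTTG1 is not in the G2 and M list. Other genes of that list than CDC20 and CCNB2 went the other way: CDK1 stood at 10.4 against 139 CPM (13.3-fold lower), UBE2C at 93.1 against 506 CPM and TOP2A at 62.2 against 245 CPM, so that of 52 measured G2 and M genes 2 were higher and 11 lower, with a median of −0.40. PIF1, a DNA helicase gene, stood at 6.25 against 130 CPM (20.8-fold lower). HIST1H4C stood at 213 against 2340 CPM (11.0-fold lower), while HIST2H2BE stood at 63.6 against 9.86 CPM and HIST1H2AC at 84.0 against 13.2 CPM. MKI67, at 368 against 362 CPM, and CDKN3, at 677 against 494 CPM, were not called. Within the same phase call, cluster 5 thus summed to much PTTG1 with little CDK1, and the other clusters to more CDK1 and less PTTG1.

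Among cytokine-treated cells called G1, 118 of cluster 5 and 2681 others, 67 of 4716 genes were higher (1.42%) and 44 lower (0.933%). PTTG1 stood at 266 against 3.14 CPM (84.7-fold), TROAP at 48.7 against 0.944 CPM (51.6-fold), STMN1 at 702 against 64.3 CPM (10.9-fold) and MKI67 at 32.2 against 1.60 CPM. Only 14 cells of cluster 5 and 26 others were called G2M in that library, too few for a list of genes. In them PTTG1 stood at 889 against 373 CPM and CDK1 at 4.11 against 144 CPM.

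Per cell, the difference lay both in how many cells held PTTG1 and in how much. To compare cells of unequal depth, each was thinned to 14000 UMIs, which left out 39 and 11 cells of cluster 5 and 86 and 48 others in the vehicle and cytokine libraries. In the vehicle library 99.7% of 368 cluster 5 cells (98.5% to 99.99%, Clopper-Pearson) held at least 1 UMI of PTTG1, against 52.0% of 2329 other cells (49.9% to 54.0%), and in the cytokine library 68.3% of 123 (59.3% to 76.4%) against 5.97% of 2981 (5.15% to 6.88%). Unthinned, the shares were 99.8% and 61.5%, and 73.9% and 8.06%. By phase call, 99.5% of 203 G1, all 23 S and all 142 G2M cells of vehicle cluster 5 held it, and in the cytokine library 65.5% of 110 G1 and all 11 G2M cells. NMU was held by 50.3% against 15.8% and by 48.0% against 2.25%. CDK1 was held by 10.6% of cluster 5 against 42.8% of the others in the vehicle library and by 4.88% against 7.04% in the cytokine library. All cells were of 1 line, so no cell type that should lack these genes was present as a measure of free RNA.

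**Figure D4:**
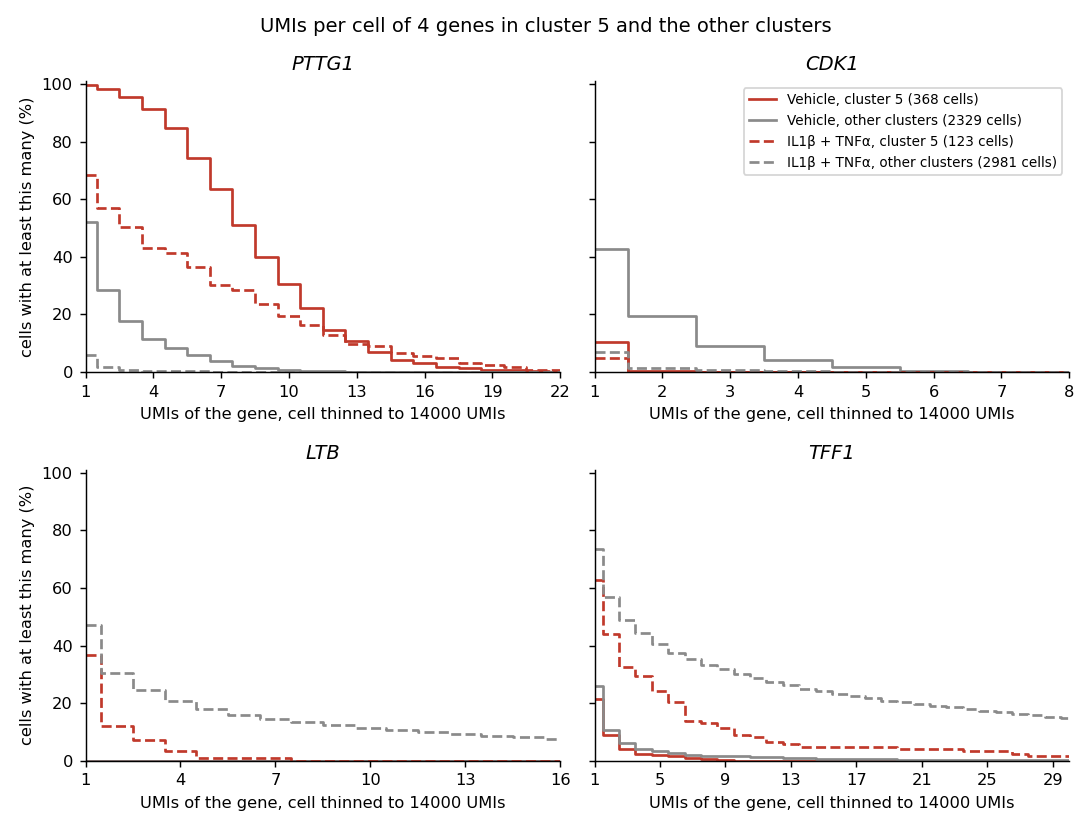
Percent of cells with at least the number of UMIs on the x axis, for PTTG1, CDK1, LTB and TFF1, after each cell was thinned to 14000 UMIs. Red lines are cluster 5 and grey lines the other clusters, solid for vehicle (368 and 2329 cells) and dashed for IL1β + TNFα (123 and 2981 cells). For PTTG1 both red lines stay above both grey lines, starting at 99.7% and 68.3%, while for LTB and TFF1 the dashed red line lies below the dashed grey line.

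In the cytokine library 34 genes were lower in cluster 5, and some of them stood higher in that library than in the vehicle library. LTB (chr6:31580525-31582522, − strand, GRCh38) encodes lymphotoxin β, a member of the TNF family. It stood at 49.9 CPM (41.6 to 59.4) in cluster 5 and 282 CPM (278 to 286) in the other cytokine-treated cells, 5.64-fold lower, with clusters 0 to 4 between 198 and 400 CPM. TFF1, a secreted trefoil peptide of epithelium, stood at 244 against 1067 CPM (4.37-fold lower), but cluster 4 stood at 220 CPM, no higher than cluster 5. NUDT8 stood at 47.9 against 204 CPM, PI3, the protease inhibitor elafin, at 20.6 against 67.3 CPM, S100A7, an antimicrobial protein of epithelium, at 5.94 against 21.4 CPM and IL32 at 6.73 against 20.8 CPM. TFF3 stood at 15.1 against 46.9 CPM and HMGCS1, an enzyme of cholesterol synthesis, at 38.0 against 80.8 CPM.

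As lists, these genes were a minority. Of 8 measured cytokines and chemokines 2 were lower and 0 higher (median log2 ratio −0.71), of 9 acute phase and antimicrobial genes 2 and 0 (−0.21), of 20 luminal genes 2 and 0 (−0.13) and of 20 cholesterol synthesis genes 1 and 0 (−0.36). With the other clusters weighted equally the acute phase median was 0.19. S100A8 and S100A9, the subunits of calprotectin, stood at 3294 against 3431 CPM and 4626 against 4717 CPM, and SAA1, serum amyloid A, at 152 against 176 CPM. LCN2 was held by 39.0% of cluster 5 cells (30.4% to 48.2%) and 29.0% of the others (27.4% to 30.6%). Unthinned, its shares were 42.5% (34.0% to 51.4%) and 36.7% (35.0% to 38.5%), with intervals that overlapped. Among cells called G1, LTB stood at 45.6 against 281 CPM and TFF1 at 258 against 1129 CPM. LTB was held by 36.6% of cluster 5 cells (28.1% to 45.7%) and 47.1% of the others (45.3% to 48.9%), and TFF1 by 62.6% and 73.4%. In the vehicle library LTB was in 0 of 368 and 0 of 2329 cells, which allows shares of up to 0.815% and 0.129% when 3 cells are taken as the limit, and 0.997% and 0.158% by Clopper-Pearson.

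MALAT1, a nuclear long noncoding RNA, stood at 15735 against 35051 CPM (log2 −1.16) in the cytokine and 14296 against 26736 CPM (−0.90) in the vehicle library, where it was not called. Both libraries had 2 lower genes in common, CAPN8, a calpain protease gene at 7.59 against 28.2 CPM and 9.51 against 20.2 CPM, and LPP, a gene of cell adhesion, at 14.6 against 39.1 CPM and 16.2 against 32.7 CPM. The lower depth of cluster 5 cells moved with these values, and its part in them was not tested.

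Cluster 5 cells of both libraries were then compared. Of 5029 measured genes 173 were higher (3.44%) and 156 lower (3.1%) in the cytokine than in the vehicle library, with a median log2 ratio of −0.06. Cells were assigned to the cluster by their expression, so the make-up of the cluster can differ between the libraries. With 1 culture each, the cytokines and the culture cannot be told apart. S100A8 went from 1.63 to 3294 CPM (log2 10.98, 10.18 to 11.94) and S100A9 from 2.44 to 4626 CPM (10.89, 10.23 to 11.64). Several genes had 0 UMIs in vehicle cluster 5. Against a floor of 3 UMIs in that pool, SAA1 at 152 CPM was at least 373-fold higher, the chemokine gene CXCL8 at 77.6 CPM at least 191-fold, LCN2, the iron-carrier binding protein lipocalin-2, at 65.4 CPM at least 161-fold, LTB at least 123-fold and TNF at 30.9 CPM at least 76.0-fold. CCL2, a chemokine of monocytes, had 1 UMI in vehicle cluster 5 and stood at 58.6 CPM in the cytokine library (log2 8.76, 6.26 to 14.07).

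The lists followed. All 8 measured acute phase and antimicrobial genes were higher (median 7.82, with genes at 0 set to the floor of 3 UMIs), as were 6 of 7 cytokines and chemokines (median 6.25), 9 of 13 MHC class I and antigen processing genes (1.31), 6 of 12 NF-κB subunits and inhibitors (1.25), 4 of 8 NF-κB targets (1.05) and 4 of 8 interferon-stimulated genes, with 0 lower in each. NFKBIA, an inhibitor of NF-κB and also its target, went from 68.3 to 1140 CPM (log2 4.06, 3.92 to 4.20) and RELB, an NF-κB subunit, from 3 UMIs (0.407 CPM) to 21.8 CPM (5.74, 4.12 to 8.06). Of 19 luminal genes 6 were higher, with KRT7 going from 172 to 1157 CPM and KRT8 from 273 to 742 CPM.

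Of 8 measured kynurenine and tryptophan genes 3 were higher and 0 lower (median 0.04). TDO2, which opens the tryptophan ring, went from 9.22 CPM (7.16 to 11.7) to 663 CPM (632 to 696) in cluster 5 (log2 6.17, 5.82 to 6.54) and from 9.31 to 559 CPM in the other clusters (5.91, 5.78 to 6.04). The difference of these ratios was 0.26 with a normal interval of −0.11 to 0.64. KMO, which oxidizes kynurenine, went from 12.6 to 166 CPM in cluster 5 (3.72) and from 8.85 to 246 CPM elsewhere (4.80), a difference of −1.08 (−1.43 to −0.73). KYNU, which cleaves it, went from 6.10 to 61.4 CPM (3.33) and from 3.79 to 70.2 CPM (4.21), a difference of −0.88 (−1.40 to −0.36) that did not reach the limit of 1. IDO1, another enzyme of the first step, had 2 UMIs in vehicle and 0 in cytokine-treated cluster 5. After thinning, TDO2 was held by 3.53% of cluster 5 and 3.99% of other vehicle cells, and by 77.2% (68.8% to 84.3%) and 66.6% (64.8% to 68.2%) of cytokine-treated cells. The 3.53% were 13 cells, and the highest of them held 19 UMIs of TDO2, against 15 in the highest other vehicle cell. The intervals do not cover this spread between cells. Among vehicle cells called G1, TDO2 stood at 5.17 CPM in cluster 5 and 13.4 CPM in the others (log2 −1.38, −2.10 to −0.73).

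Mitotic genes were among those that fell. Of 36 measured G2 and M genes 29 were lower in cytokine-treated cluster 5 and 0 higher (median −1.53), and of 18 S phase genes 7 and 0 (−0.79). ASPM, a spindle pole protein gene, fell from 72.1 to 8.71 CPM (log2 −3.05), CENPA, the centromeric histone H3, from 30.6 to 3.96 CPM (−2.95), the mitotic kinase gene PLK1 from 52.0 to 9.90 CPM (−2.39) and HMGB2 from 545 to 69.3 CPM (−2.97). The share of cluster 5 cells called G2M, 40.3% and 10.4%, moved with these values. SLC1A7, a glutamate transporter gene, fell from 179 to 17.4 CPM (−3.36, −3.83 to −2.93). Among cells called G1 alone 89 genes were lower in place of 156, with 9 of 23 measured G2 and M genes (median −0.96) and 6 of 15 S phase genes (−0.43) among them.

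The response in cluster 5 overlapped that of the other clusters, where 228 of 5111 genes were higher (4.46%) and 364 lower (7.12%). Of the genes higher in cluster 5, 136 were higher elsewhere too, 78.6% of those in cluster 5 and 59.6% of those elsewhere. Of the lower genes 113 were shared, 72.4% of those in cluster 5 and 31.04% of those elsewhere, and 0 genes moved in opposite directions. The ratio differed by at least 1 on the log2 scale, with a normal interval on the same side, in 158 of 5369 genes: it was higher in cluster 5 in 133 (2.48%) and lower in 25 (0.466%). For 11 genes with a sum of 0 no difference was computed.

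Some genes of the cell cycle lists had a higher ratio in cluster 5. Of 32 measured S phase genes 11 had a higher ratio and 0 a lower one (median difference 0.89), and of 40 G2 and M genes 16 and 0 (0.79), beside a median of 0.09 over all genes. PTTG1 had a log2 ratio of −0.84 in cluster 5, which was not called, and fell by 3.71 elsewhere, a difference of 2.87 (2.70 to 3.04). For NMU the ratios were 0.30 and −2.91 (difference 3.20, 2.83 to 3.58), for TROAP −0.87 and −3.88 (3.01) and for SKA3, a kinetochore protein gene, −0.71 and −3.32 (2.61). For HIST1H4C they were −1.03 and −3.45 (2.43), and for MYBL2, a transcription factor of the G2 and M genes, −0.95 and −3.32 (2.37). S100A9 differed by 1.52 (0.83 to 2.20) and CCL2, on 1 vehicle UMI, by 3.06 (0.21 to 5.91). A normal interval is unreliable on 1 UMI. Among thinned cytokine-treated cells CCL2 was held by fewer cells of cluster 5, 13.8% (8.26% to 21.2%) against 27.5% of the others (25.9% to 29.1%). After thinning, S100A9 was held by 2.99% of cluster 5 and 3.31% of other vehicle cells. The highest cell held 2 UMIs of it in cluster 5 and 93 in the others, a spread between cells that the interval does not cover. In the other clusters the share of cells called S was 51.8% in the vehicle and 10.6% in the cytokine library and that of G2M 14.6% and 0.858%. These shares moved with the differences, and their part in them was not tested. Among cells called G1 alone 85 genes had a higher ratio, and 58 of them were among the 133.

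Of 12 measured histone genes of the list 4 had a higher ratio in cluster 5 and 2 a lower one, with a median difference of −0.43. HIST2H2BE had a log2 ratio of 0.06 in cluster 5 and 2.26 elsewhere (difference −2.21, −2.52 to −1.89), HIST1H3H, which is outside the list, of −0.06 and 1.38 (−1.45) and HIST1H2BG of −0.12 and 1.22 (−1.33). SEC14L2, a lipid-binding protein gene, had ratios of −0.26 and 1.89 (−2.15), TFF3 of 0.35 and 1.83 (−1.48), CDSN, an adhesion protein of cornified epithelium, of 0.40 and 1.75 (−1.35) and TFF1 of 2.87 and 4.04 (−1.18). HIST2H2BE stood at 51.4 and 53.5 CPM in cluster 5, and 10.4 and 49.9 CPM in the other clusters.

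**Figure D5:**
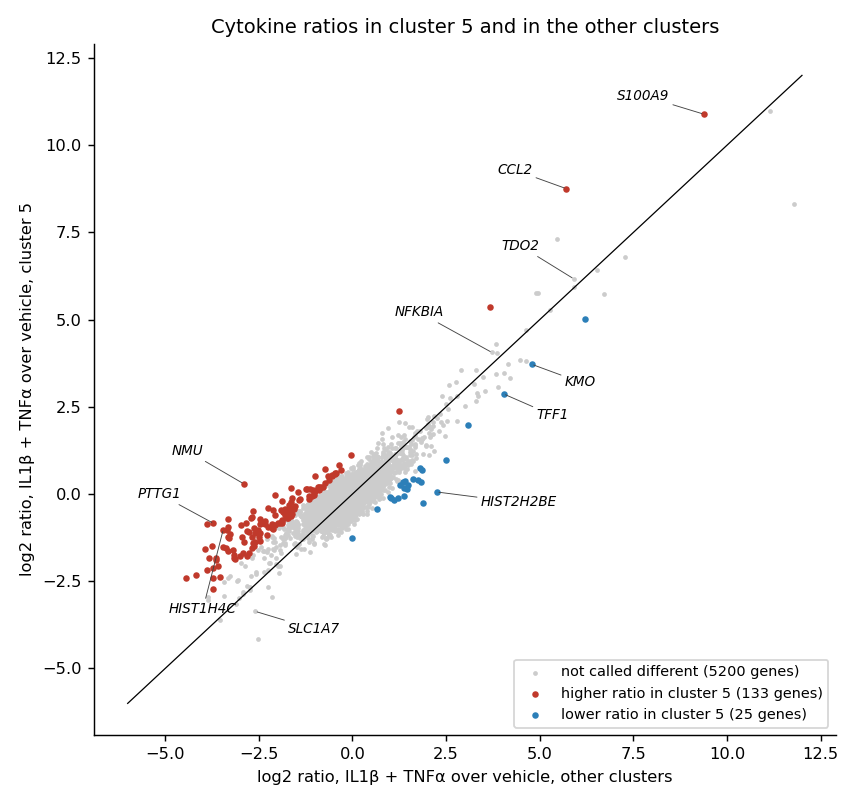
Log2 ratio of IL1β + TNFα over vehicle in the other clusters (x axis) and in cluster 5 (y axis), with 1 point for each measured gene that has both ratios and a line where they are equal. Red points are the 133 genes with a higher ratio in cluster 5, blue points the 25 with a lower ratio, and grey points the 5200 others. PTTG1, NMU and HIST1H4C lie well above the line on the left, at −3.71, −2.91 and −3.45 on the x axis, while TDO2 and NFKBIA lie close to it.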

How the data were processed

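MDA-MB-453 cells of 1 vehicle and 1 cytokine library were analysed, with each cell placed in its library through the table of cells. Per the labels and the study's methods the authors used Cell Ranger 3.1.0 and GRCh38, and the deposited values are raw UMI counts of 16251 genes. In Seurat 4.0.4 they kept cells below 50000 UMIs and below 15% mitochondrial UMIs whose gene number lay between 3000 and 5000, and genes found in 10 cells at least. These limits can remove cells rich in RNA, such as cells about to divide. The deposited table also gave the percent of mitochondrial UMIs, phase calls, map coordinates (a score without unit) and cluster numbers. Both libraries had been integrated with the difference of S and G2/M scores regressed out, and the settings of the clustering are not given in the sources used here.

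UMIs were summed over the cells of a pool and divided by the pool's total (CPM). Intervals were exact Poisson for a CPM, exact conditional binomial for a ratio, Clopper-Pearson for a share and normal for a difference of ratios. They cover counting error only, neither the spread between cells nor that between cultures. No test was made, since cells of 1 culture are not replicates. Calls needed 20 CPM in either pool and a 2-fold ratio with its interval on the same side. In list medians a sum of 0 was set to a floor of 3 UMIs. The 47 gene lists and the members were chosen with earlier results of these data known. Named genes were, for each library, the 12 highest and 12 lowest called ratios of cluster 5 over the rest, the 10 genes most above and most below every other cluster, the 12 highest and 12 lowest called cytokine ratios in cluster 5, the 8 highest and 8 lowest differences, 11 fixed genes, and up to 4 members of each list whose median lay 0.3 or more from that of all genes. Other named genes are called members of the lists, the genes called in both libraries, and markers. The values of 1 called list member are not reported here. Scrublet (scanpy 1.11.5) called 4 of 5985 cells doublets (0.067%), 0 of them in cluster 5, and was judged not to have worked, so no cell was removed. The rule for calls, not the doublet step, was tested on simulated sums. These were drawn with counting error alone and held no spread between cells. Python 3.11.15, numpy 2.4.6, scipy 1.17.1, pandas 2.3.3, R 4.3.3, edgeR 4.0.16 and DESeq2 1.42.0 were used.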

Additional observations from a re-analysis of the deposited data

How the results depend on the processing

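No paired analysis was possible because each condition was 1 library and no test was made. Scaling by TMM or DESeq2 size factors, totals without ribosomal protein and mitochondrially encoded genes, means of per-cell CPM, and leaving out the deepest cells or those at 10% or more mitochondrial UMIs kept the vehicle counts within 1.5 times. In the cytokine library the count of lower genes, 34, was 55 with TMM, 53 with DESeq2 size factors and 59 with totals without ribosomal and mitochondrial genes, which also gave 261 lower genes in the response in place of 156 and 195 higher in place of 173. The limit on low values set most counts. At 5 CPM there were 89 higher and 228 lower genes in the vehicle library, 200 and 143 in the cytokine library, 368 and 424 in the response and 341 and 102 in the difference. Without a limit there were 347 and 450, 362 and 223, and 528 and 534. Cells called G1 alone gave 13 lower genes in the vehicle library, 89 lower in the response and 85 with a higher ratio in the difference, and cells called G2M alone, an alternative chosen after seeing the data, gave 59 higher genes in the vehicle library. With G1 cells alone the vehicle log2 ratio turned positive for PIF1 (0.98), HIST1H4C (0.018), TOP2A (0.85), RRM2 (1.43), PCNA (0.060), CDC45 (0.032), UBE2C (0.30) and HIST1H1D (0.16), and negative for HIST1H2BG (−0.24). PIF1 rested on 4 against 8 UMIs, with an interval of −1.21 to 2.88. Intervals for HIST1H4C, PCNA, CDC45 and HIST1H2BG also included both signs. PIF1, CDC45 and TOP2A stood under 20 CPM in both pools of G1 cells. With G2M cells alone the vehicle log2 ratio turned for FABP7 (−1.67) and UNG (0.86), and in the difference with G1 cells alone for PLK1 (−0.18). These settings hold fewer cells, and the cause of the turns was not tested. In all, 12 values reversed, 700 moved and 6567 kept within their limits over 15 settings.

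Shares of cells moved with depth. For PTTG1 the share in the other vehicle cells was 61.5% unthinned, 36.9% at 7000 UMIs and 28.5% at 2 or more UMIs, and in cluster 5 96.6% and 98.4% under the last pair. In the cytokine library it was 8.06%, 3.63% and 1.61% in the others and 56.9% in cluster 5 at 2 or more UMIs. For TDO2 the vehicle shares were 1.36% in cluster 5 at 2 or more UMIs, and 2.90% at 7000 UMIs and 1.80% at 2 or more in the others. The cytokine shares were 66.4% and 64.2% in cluster 5, and 71.6%, 58.4% and 55.6% in the others. For LTB they were 23.1% and 12.2% in cluster 5, and 54.7%, 37.4% and 30.5% in the others. With 134 cells, cytokine-treated cluster 5 set the precision, as 1 UMI there is worth more CPM than in any other pool.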
